A study of Mus musculus with 8 samples.

Results

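The S100 genes of mouse chromosome 3 encode small calcium sensors of the epidermis and other tissues. The 10 genes described here are S100a3, S100a4, S100a6, S100a8, S100a9, S100a10, S100a11, S100a13, S100a14 and S100a16, taken by symbol from the 26202 genes of the RPKM table, where RPKM is a read count scaled by transcript length and sequencing depth. All 10 were among the 12090 genes that reached 1 RPKM in 2 or more of the 8 libraries and so were tested. Polyadenylated RNA was sequenced from primary cells grown from the skin epidermis of newborn transgenic mice, aged 0 to 1 days. The adenoviruses were added 24 hours after plating. The 4 groups of 2 libraries were Dlx3 knockout (KO) cells with the Dlx3 adenovirus (AdDlx3), wild-type (WT) cells with AdDlx3, KO cells with the GFP control adenovirus (AdGFP) and WT cells with AdGFP. Every culture thus carried a virus, and the labels call all the mice transgenic. The alleles, the promoter or Cre behind the knockout, the mouse strain and any pooling of pups are not stated in the labels. Nothing says that the 2 libraries of a group came from separate pups or cultures, so p-values measure only the spread between these libraries, which may be technical.

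An S100 protein has a pair of calcium-binding EF-hand loops and usually works as a dimer. Binding of calcium opens a surface that holds a partner protein, such as an annexin, a myosin or a receptor. Many S100 genes lie side by side in the epidermal differentiation complex, a region that also holds the genes of the cornified envelope. Dlx3 is a homeodomain transcription factor of the differentiating epidermis and the hair follicle.

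The libraries held 73688944 to 124857742 alignments and 11011 to 11594 genes at 1 RPKM or more. Dlx3 itself was at 402 and 539 RPKM in KO AdDlx3 libraries, 237 and 782 in WT AdDlx3 libraries, 0.656 and 0.558 in KO AdGFP libraries and 1.71 and 1.77 in WT AdGFP libraries, with the batch A library first. The first library of each group was labelled batch A and the second batch B. All 8 basal keratinocyte markers passed the filter, but their summed level was 1235 and 962 RPKM in the batch B AdDlx3 libraries, 6890 and 8461 RPKM in the batch A AdDlx3 libraries and 11386 to 17373 RPKM in the AdGFP libraries, with KO first in each pair. In such bulk RNA, fewer cells of a type and less RNA per cell cannot be told apart. The median of all genes tested was +0.22 on the log2 scale for AdDlx3 minus AdGFP, and -0.06 after rescaling each library by the median of ratios across genes.

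The genes lie in a pair of blocks on chromosome 3 (GRCm38, GENCODE M21). S100a13 starts the first block at base 90514435, followed by S100a14, S100a16, S100a3, S100a4, S100a6, S100a8 and S100a9, whose model ends at base 90695721. S100a11 (bases 93520488 to 93526287) and S100a10 (bases 93555080 to 93564643) lie 3006 and 3041 kb from the start of S100a13. S100a9 is on the minus strand and the others are on the plus strand. The S100a3 model, bases 90560578 to 90602702, contains S100a2 and overlaps Gm42674 and Gm23464, and Gm42674 also overlaps S100a4. No label or header tells how the authors shared reads between overlapping genes, so the S100a3 and S100a4 levels are uncertain to that extent.

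**Figure D1:**
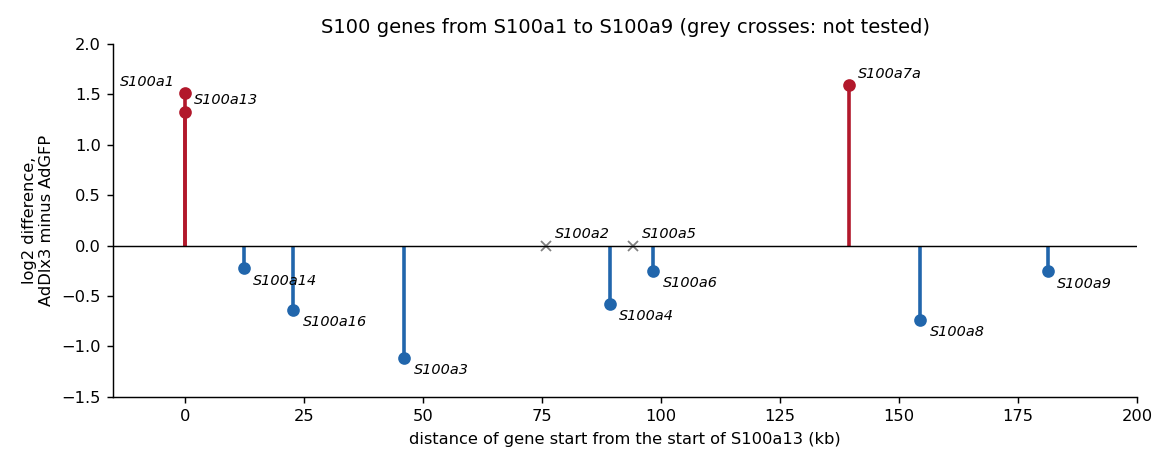
Log2 difference between AdDlx3 and AdGFP libraries over both genotypes (vertical axis) for the S100 genes from S100a1 to S100a9, by distance of the gene start from the S100a13 start (horizontal axis, kb). Red points are positive and blue points negative values, whether or not they passed the test, and grey crosses mark genes that were not tested. S100a1 and S100a13 stand side by side above 1, S100a7a is at 1.59, and S100a16, S100a3, S100a4 and S100a8 lie below -0.5.

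RefSeq promoter windows (GRCm38.p6) were found for 8 of the 10 genes, in 12 windows, since some genes have several starts, and none for S100a10 and S100a14. The stretches printed here belong to the gene that rose, the gene with the largest decrease, and the pair of genes whose patterns were closest to each other. S100a13 and S100a1 point away from each other, and their RefSeq starts are 104 bases apart. The first line is the plus strand between those starts, at chr3:90514331-90514434, and its capitals mark the 42 bases that lie outside both GENCODE gene models. The other lines are the 250 plus-strand bases before a RefSeq start, at chr3:90588313-90588562 for S100a3, chr3:90540896-90541145 for S100a16 and chr3:93520246-93520495 for S100a11. S100a3 has 4 RefSeq starts and S100a16 has 2, and the line shown is the one for the start with a motif named here (for S100a3, the start with a TATA box). In these lines capitals mark the letters TATAAA, those of the TATA element, or the letters TAATT, those of a homeodomain core. Capitals also mark the letters TGANTCA, where N is any base. They are looser than the usual AP-1 site, which has C or G at N. Each of these motifs was searched on both strands, and no matches overlap in these lines.
S100a1 to S100a13: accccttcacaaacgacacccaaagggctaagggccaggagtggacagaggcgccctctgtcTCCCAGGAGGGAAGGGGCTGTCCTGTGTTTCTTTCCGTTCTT
S100a3: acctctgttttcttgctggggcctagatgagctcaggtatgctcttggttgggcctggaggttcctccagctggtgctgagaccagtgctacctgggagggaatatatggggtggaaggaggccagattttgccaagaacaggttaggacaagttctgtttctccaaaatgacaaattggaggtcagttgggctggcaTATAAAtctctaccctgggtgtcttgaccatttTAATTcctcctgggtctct
S100a16: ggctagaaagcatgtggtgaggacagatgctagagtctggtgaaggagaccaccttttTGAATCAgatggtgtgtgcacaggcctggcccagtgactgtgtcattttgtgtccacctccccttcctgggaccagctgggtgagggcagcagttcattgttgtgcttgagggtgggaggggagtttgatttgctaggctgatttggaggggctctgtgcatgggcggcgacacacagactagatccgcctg
S100a11: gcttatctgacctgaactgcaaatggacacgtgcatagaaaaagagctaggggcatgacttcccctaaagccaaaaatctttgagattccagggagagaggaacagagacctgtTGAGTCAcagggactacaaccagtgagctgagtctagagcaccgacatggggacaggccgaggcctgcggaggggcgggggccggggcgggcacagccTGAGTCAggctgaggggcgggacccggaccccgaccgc

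In the S100a3 line the TATA box begins 52 bases and the homeodomain core 19 bases before the start. The TGANTCA letters begin 192 bases before the S100a16 start shown, and 136 and 38 bases before the S100a11 start. The S100a16 match is TGAATCA, with A at N, so it is not the usual AP-1 site. The other S100a16 window, with its start at base 90537254, has no match. Over the whole 300-base windows (250 bases before and 50 after the start), TATAAA was in 4 of the 12 windows (of S100a3, S100a4, S100a8 and S100a9) and in 13.62% of 32851 promoters. TAATT was in 3 of the 12 (of S100a3 and S100a6) and in 27.03% of promoters, and TGANTCA in 2 of the 12 (of S100a11 and S100a16) and in 7.81% of promoters. In the last 150 bases before the start alone, TATAAA was in 3 of the 12 windows, TAATT in 2 and TGANTCA in 1 (7.57%, 14.59% and 4.24% of promoters). None of these letters is in the S100a13 window. These matches are letters in a window and say nothing of binding.

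The 10 genes covered a wide span of levels. S100a11 had the highest mean, 1331 RPKM over the 8 libraries, and ranked 21 of all genes in the table. S100a6 (795 RPKM) and S100a10 (689 RPKM) followed, and the ranges of these 3 genes overlapped. S100a14 (375 RPKM) and S100a16 (132 RPKM) each stood clear of their neighbours in every library. S100a13 (8.94 RPKM), S100a9 (8.19), S100a8 (7.0) and S100a4 (5.32) overlapped one another, and S100a3 was lowest at 1.74 RPKM, overlapping S100a4 and S100a8. The sum over the 10 genes was 2468 to 4041 RPKM per library, or 0.673 to 1.06% of the library's total RPKM. S100a6, S100a10 and S100a11 together made up 81.9 to 85.8% of that sum in each library.

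**Figure D2:**
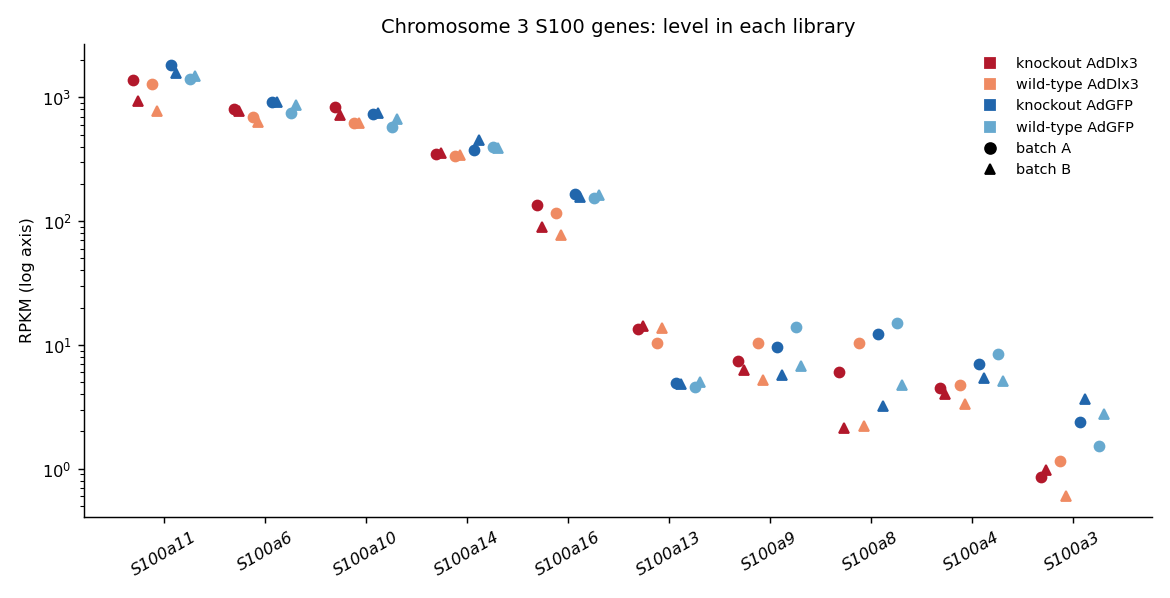
RPKM of each of the 10 S100 genes (log vertical axis) in the 8 libraries, with the groups of each gene from left to right as KO AdDlx3, WT AdDlx3, KO AdGFP and WT AdGFP. Each point is 1 library, with circles for batch A and triangles for batch B. S100a13 is higher in all 4 AdDlx3 libraries, while S100a8 splits by batch in every group.

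The first question was what the Dlx3 virus did to these genes. Between AdDlx3 and AdGFP libraries over both genotypes, S100a13 rose and S100a3 and S100a16 fell, and 7 of the 10 genes did not pass the test (limma on log2(RPKM + 0.5), Benjamini-Hochberg adjusted p under 0.05). The background was large: 23.4% of all genes tested rose and 5.74% fell (29.2% in either direction), against 1 and 2 of these 10. The libraries of the viruses did not overlap for 1 gene that was higher with AdDlx3 (S100a13) and 5 that were lower (S100a3, S100a4, S100a11, S100a14 and S100a16). Over all genes tested 35.9% did not overlap, 29.6% higher and 6.27% lower. The fitted difference was negative for 8 of the 10 genes, with a median of -0.41 beside +0.22 over all genes. After median-of-ratios rescaling it was negative for 9 of 10, with a median of -0.70 beside -0.06.

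**Figure D3:**
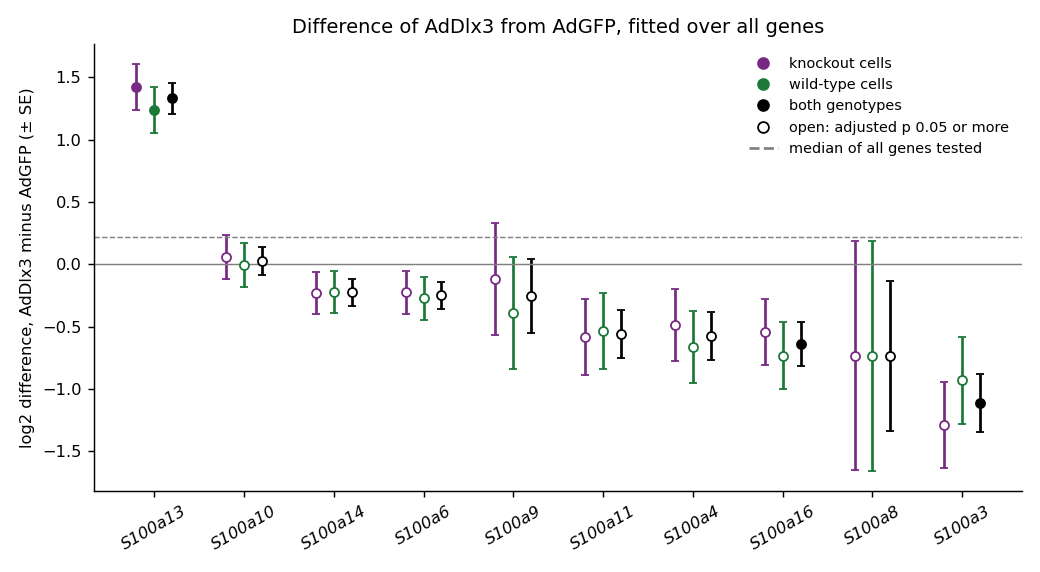
Log2 difference between AdDlx3 and AdGFP libraries (vertical axis, with standard error) for each S100 gene in KO cells (purple), WT cells (green) and both genotypes (black), as fitted by limma. Filled points passed an adjusted p of 0.05, open points did not, and the dashed line is the median of all genes tested, +0.22. S100a13 is above 1 in both genotypes, and S100a3 has the lowest values in both.

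S100a13 takes part in the secretion of proteins that lack a signal peptide, such as FGF1 and IL-1 alpha. It was at 13.6 and 14.3 RPKM in KO AdDlx3 libraries, 10.5 and 13.8 RPKM in WT AdDlx3 libraries, 4.95 and 4.84 RPKM in KO AdGFP libraries and 4.57 and 5.04 RPKM in WT AdGFP libraries. Every AdDlx3 library was above every AdGFP library, in both genotypes and both batches. The means were 13.02 ± 1.73 RPKM with AdDlx3 and 4.85 ± 0.201 RPKM with AdGFP (SD, n = 4 each), a 2.51-fold difference on the log2(RPKM + 0.5) scale (log2 1.33 ± 0.12 SE, limma adjusted p = 0.000548). Within batch A the log2 difference was 1.24, and within batch B 1.42. It remained called without any one library, with limma adjusted p of 0.000634 to 0.00401.

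S100a13 also passed within each genotype, with a log2 difference of 1.42 ± 0.19 in KO cells (limma adjusted p = 0.0159) and 1.24 ± 0.19 in WT cells (limma adjusted p = 0.0287). It was the only one of the 10 genes to do so, where 5.32% of all genes passed in KO cells (4.43% higher and 0.893% lower) and 2.62% in WT cells (2.27% higher and 0.356% lower). With batch as a block these counts became 3 of 10 in each genotype, where 24.6% of all genes passed in KO cells and 22% in WT cells: S100a13 with S100a3 and S100a8 in KO cells, and S100a13 with S100a4 and S100a8 in WT cells. The WT call was lost with no filter (limma adjusted p = 0.0541), with median-of-ratios rescaling (0.0630) and with equal RPKM sums (0.0532). The KO call was lost in the fits without any one KO library or WT AdGFP library (limma adjusted p 0.0513 to 0.106), and the WT call without any one library other than the batch A WT AdDlx3 library (0.0515 to 0.203). In the authors' deposited table, the entry for S100a13 had a fold change of 2.81 with q = 0.0385 in KO cells and 2.47 with q = 0.0546 in WT cells.

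S100a1, the head-to-head neighbour that shares the stretch printed above, is known for its part in calcium handling of heart and muscle. It is not among the 10 genes. Its levels were 17.0 and 12.9 RPKM in KO AdDlx3 libraries, 11.9 and 13.97 RPKM in WT AdDlx3 libraries, 5.03 and 3.71 RPKM in KO AdGFP libraries and 5.04 and 4.42 RPKM in WT AdGFP libraries. As with S100a13, no AdDlx3 library overlapped an AdGFP library, and the log2 difference was 1.51 ± 0.15 (limma adjusted p = 0.000777), called without any one library. The ratio of S100a13 to S100a1 was 0.797 to 1.11 with AdDlx3 and 0.907 to 1.30 with AdGFP, a log2 difference of -0.20 (exact two-sided permutation test over 70 arrangements, p = 0.229, or 0.286 after Benjamini-Hochberg adjustment over 4 ratios). It was lower with AdDlx3 in all 4 pairs of the same genotype and batch, by -0.17 within batch A and -0.22 within batch B, and the test takes no account of batch. The ratios were chosen after the data were seen. Among all head-to-head pairs of tested genes with RefSeq starts at most 200 bases apart, both genes rose in 24 pairs (6.25%), and both fitted log2 differences were above 1 in 4 pairs, this one included. That count was also made after the data were seen. Around the first block, 6 coding neighbours outside the S100 family within 150 kb were tested. Ints3 (log2 0.47) and Chtop (log2 0.41) rose, none fell, and the median over the 6 was 0.42. Over all genes tested 23.4% rose and 5.74% fell, with a median of +0.22.

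S100a3, a cysteine-rich protein of the hair cuticle, was the least abundant of the genes. Its levels were 0.853 and 0.977 RPKM in KO AdDlx3 libraries, 1.16 and 0.607 RPKM in WT AdDlx3 libraries, 2.37 and 3.66 RPKM in KO AdGFP libraries and 1.53 and 2.79 RPKM in WT AdGFP libraries. All AdDlx3 libraries were below all AdGFP libraries. It fell by 1.11 ± 0.23 on the log2(RPKM + 0.5) scale, or 2.16-fold (limma adjusted p = 0.0110), and remained called without any one library (0.00847 to 0.0406). Within batch A the difference was -0.69, and within batch B -1.53. The test of that change between batches gave a limma adjusted p of 0.0695, or 0.0112 without the batch A KO AdDlx3 library. At levels this near the pseudocount, a fold on this scale understates the change in RPKM. With AdDlx3 only the batch A WT library reached 1 RPKM, so S100a3 passed the filter through its AdGFP libraries. It was also called with no filter.

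S100a16, a widely expressed member, was at 136 and 89.3 RPKM in KO AdDlx3 libraries, 116 and 77.7 RPKM in WT AdDlx3 libraries, 165 and 157 RPKM in KO AdGFP libraries and 153 and 164 RPKM in WT AdGFP libraries. All AdDlx3 libraries were below all AdGFP libraries, and the batch B AdDlx3 libraries were lowest. It fell by 0.64 ± 0.18 on the log2 scale, or 1.56-fold (limma adjusted p = 0.0306). The call was lost with no filter on low values (adjusted p = 0.0583). It was also lost without any one of the 6 libraries other than the batch A AdDlx3 libraries (0.0585 to 0.0834). Within batch A the difference was -0.33, and within batch B -0.94.

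S100a11, an annexin A1 partner and a protein of the cornified envelope, was the most abundant of the genes. Its levels were 1382 and 930.0 RPKM in KO AdDlx3 libraries, 1278 and 772 RPKM in WT AdDlx3 libraries, 1811 and 1586 RPKM in KO AdGFP libraries and 1396 and 1489 RPKM in WT AdGFP libraries. All 4 AdDlx3 libraries were below all 4 AdGFP libraries, the highest AdDlx3 library lying at 1382 RPKM and the lowest AdGFP library at 1396 RPKM. The log2 difference of -0.56 ± 0.20 did not pass (limma adjusted p = 0.0646). It passed with batch as a block (0.0129), after median-of-ratios rescaling (0.0182), and without the batch A AdDlx3 library of KO cells (0.0454) or of WT cells (0.0294). Within batch A the difference was -0.26, and within batch B -0.86.

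The virus effect was thus also compared between the batches. The test of that change passed for 1 of the 10 genes, S100a16, whose difference was lower in batch B by 0.61 ± 0.16 on the log2 scale (limma adjusted p = 0.0361). Over all genes 14% passed, 5.43% with a more positive and 8.56% with a more negative difference in batch B. The S100a16 call was lost in the fits without any one of 6 libraries (adjusted p 0.0932 to 0.200), namely all but the batch A WT AdDlx3 and batch B KO AdGFP libraries. For S100a11 the adjusted p was 0.0501. The basal keratinocyte markers moved in the same libraries: 5 of 8 (Krt5, Krt14, Trp63, Itgb4 and Col17a1) had a more negative difference in batch B by this test. The other 3 (Krt15, Itga6 and Cdh1) did not pass it, and Itga6 rose with AdDlx3 over both batches (log2 0.55, limma adjusted p = 0.0226), a call lost in 4 of 8 fits without 1 library and after median-of-ratios rescaling (0.227). Krt5, a keratin of basal cells that with Krt14 made up most of the summed level in AdGFP libraries, was at 299.8 and 221 RPKM in the batch B AdDlx3 libraries of KO and WT cells, against 6223 and 7903 RPKM in the batch B AdGFP libraries of KO and WT cells. Over both batches Cdh1 (log2 -0.90, limma adjusted p = 0.00712) and Itgb4 (log2 -0.87, limma adjusted p = 0.0218) fell. The Itgb4 call was lost in some fits without 1 library. With batch as a block 1 of the 8 markers rose and 6 fell, where 38% of all genes rose and 10.9% fell. After median-of-ratios rescaling none rose and 4 fell, where 9.67% and 12.1% of all genes did. The markers' part in the S100 differences was not tested.

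**Figure D4:**
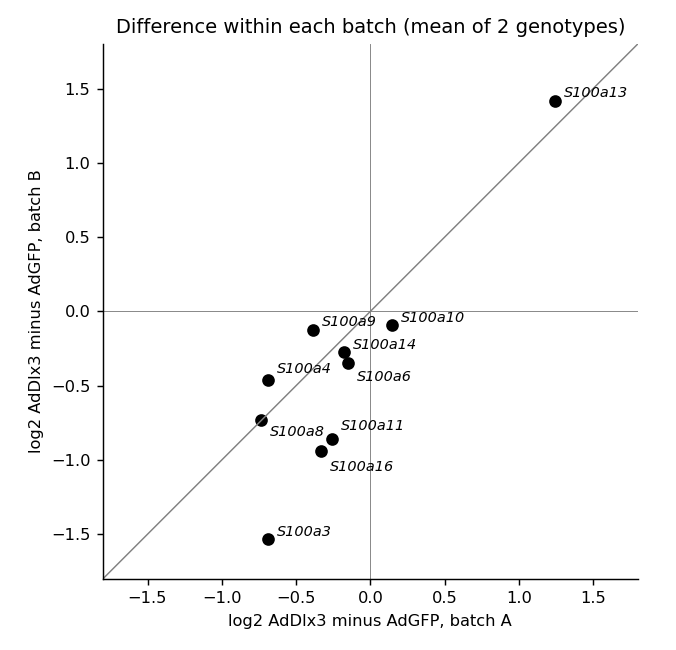
Log2 difference between AdDlx3 and AdGFP libraries in batch A (horizontal axis) and batch B (vertical axis) for each S100 gene, as the mean of both genotypes. The diagonal marks equal differences. S100a13 is near it at the top right, S100a8 is on it, and S100a3, S100a11 and S100a16 lie furthest below it. S100a6, S100a10 and S100a14 are also below it, S100a10 at 0.15 in batch A and -0.09 in batch B.

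Among the other abundant genes, S100a14, a member known mainly from epithelia, was at 348 and 355 RPKM in KO AdDlx3 libraries, 334 and 343 RPKM in WT AdDlx3 libraries, 373 and 457 RPKM in KO AdGFP libraries and 398 and 391 RPKM in WT AdGFP libraries. The viruses did not overlap, and the AdDlx3 libraries were close together, at 345 ± 9.03 RPKM with AdDlx3 and 405 ± 36.4 RPKM with AdGFP (SD, n = 4 each). The log2 difference of -0.23 ± 0.11 did not pass (limma adjusted p = 0.142). S100a6, or calcyclin, which binds the calcyclin-binding protein Cacybp, was at 800.2 and 778 RPKM in KO AdDlx3 libraries, 697 and 634 RPKM in WT AdDlx3 libraries, 924 and 919 RPKM in KO AdGFP libraries and 742 and 869 RPKM in WT AdGFP libraries. The viruses overlapped, though AdDlx3 was below AdGFP within each genotype and batch. The log2 difference of -0.25 ± 0.11 did not pass (limma adjusted p = 0.119). After median-of-ratios rescaling both passed, at -0.52 for S100a14 (limma adjusted p = 0.0103) and -0.55 for S100a6 (0.0106).

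S100a10 is unusual in that its loops no longer bind calcium. It forms a complex with annexin A2 at the cell membrane. It was at 829.8 and 719 RPKM in KO AdDlx3 libraries, 618 and 616 RPKM in WT AdDlx3 libraries, 731 and 755 RPKM in KO AdGFP libraries and 573 and 669 RPKM in WT AdGFP libraries. The viruses overlapped, with a log2 difference of 0.03 ± 0.11 (limma adjusted p = 0.879), and its sign turned to -0.27 after median-of-ratios rescaling (0.108). S100a10, S100a6 and S100a11 were each higher in KO than in WT libraries in all 4 pairs of the same virus and batch. For S100a10 alone the genotypes did not overlap. All 4 of its KO libraries, at 719 to 829.8 RPKM, were above all 4 WT libraries, at 573 to 669 RPKM. That difference of 0.29 ± 0.11 on the log2 scale had an unadjusted p of 0.0297 in limma's test and did not pass (adjusted p = 1).

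S100a4 binds non-muscle myosin IIA and is also a fibroblast gene. It was at 4.47 and 4.03 RPKM in KO AdDlx3 libraries, 4.71 and 3.33 RPKM in WT AdDlx3 libraries, 6.98 and 5.41 RPKM in KO AdGFP libraries and 8.51 and 5.08 RPKM in WT AdGFP libraries. All AdDlx3 libraries were below all AdGFP libraries, and within each group the batch B library was lower. The log2 difference of -0.58 ± 0.19 did not pass (limma adjusted p = 0.0536), and passed with batch as a block (0.00481), after median-of-ratios rescaling (0.0182) and without the batch B WT AdGFP library (0.0497). Of 10 fibroblast markers, 7 were tested, Col1a2 and Vim rose and Col6a3 fell, where 23.4% of all genes rose and 5.74% fell. The summed level of the 10 markers was 85.4 to 109 RPKM with AdDlx3 and 63.3 to 74.3 RPKM with AdGFP. Dcn also rose, and Col1a1 and Col3a1 also fell, with batch as a block. The rise of Col1a2 and Vim did not pass after median-of-ratios rescaling (limma adjusted p = 0.0968 and 0.115). Without 1 library, Col1a2 was lost in 6 of 8 fits (up to 0.113), Col6a3 in 5 (up to 0.105) and Vim in 3 (up to 0.0537), and with no filter Col1a2 (0.0887) and Col6a3 (0.0749) were lost. The markers' part in the S100a4 values was not tested.

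S100a8 and S100a9 form calprotectin, an antimicrobial pair known from neutrophils and from stressed keratinocytes. S100a8 was at 6.08 and 2.13 RPKM in KO AdDlx3 libraries, 10.3 and 2.22 RPKM in WT AdDlx3 libraries, 12.3 and 3.22 RPKM in KO AdGFP libraries and 14.9 and 4.79 RPKM in WT AdGFP libraries. It was lower in the batch B library of every group, and the batches did not overlap. The fitted value in batch B minus that in batch A was -1.66 with AdDlx3 and -1.66 with AdGFP. Within each genotype and batch AdDlx3 was below AdGFP, by -0.74 within batch A and by -0.73 within batch B on the log2 scale. The pooled difference of -0.73 ± 0.60 did not pass (limma adjusted p = 0.382), and with batch as a block it was -0.73 ± 0.12 and passed (0.00208).

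S100a9 was at 7.47 and 6.25 RPKM in KO AdDlx3 libraries, 10.4 and 5.17 RPKM in WT AdDlx3 libraries, 9.66 and 5.73 RPKM in KO AdGFP libraries and 14.1 and 6.79 RPKM in WT AdGFP libraries. The viruses overlapped, and the batch B library was again lower in every group. The log2 difference of -0.25 ± 0.30 did not pass, either without the block (limma adjusted p = 0.539) or with it (0.174). The ratio of S100a8 to S100a9 spanned 0.815 to 1.28 over the batch A libraries and 0.340 to 0.705 over those of batch B. By virus it was 0.340 to 0.993 with AdDlx3 and 0.563 to 1.28 with AdGFP (exact two-sided permutation p = 0.286, and 0.286 after adjustment over 4 ratios). That test takes no account of batch. In all 4 pairs of the same genotype and batch the ratio was lower with AdDlx3, by a log2 difference of -0.37 within batch A and -0.72 within batch B. Of 16 neutrophil and myeloid markers only Cd68, Cxcr2 and Lyz2 passed the filter and none of the 3 was called. Cxcr2 with batch as a block rose by 0.39 on the log2 scale (limma adjusted p = 0.0199). The defining neutrophil markers Ly6g, Mpo and Elane were at most at 0.0304 RPKM in any library. The summed level of the 16 was 21.1 to 23.7 RPKM with AdDlx3 and 17.2 to 27.3 RPKM with AdGFP.

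With batch as a block, the number of the 10 genes called over both genotypes was 6, with S100a4, S100a8 and S100a11 added to S100a3, S100a13 and S100a16. In that fit 48.9% of all genes were called, 38% higher and 10.9% lower. Median-of-ratios rescaling gave 7 of the 10, S100a13 higher and 6 lower, where 21.8% of all genes were called, 9.67% higher and 12.1% lower.

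The knockout itself was the second question. No S100 gene of the 10 passed in KO against WT under AdGFP, under AdDlx3 or over both viruses, nor in the interaction of genotype and virus. In each of these comparisons the share of all genes called was 0%, so Dlx3 itself was not called either. Dlx3 was at only 1.71 and 1.77 RPKM in WT AdGFP libraries, and at 237 RPKM or more in every AdDlx3 library of both genotypes. These comparisons thus cannot show that the knockout had no effect. By limma's unadjusted p under 0.05, the numbers of all genes were 121 under AdGFP, 45 under AdDlx3, 194 over both viruses and 40 for the interaction. Of the 10 genes, S100a10 alone was under that mark, over both viruses. With batch as a block 2 of the 10 and 531 of all genes were under it over both viruses. S100a10 was also the only one of the 10 whose KO and WT libraries did not overlap. Over all genes tested 0.562% did not overlap, 0.215% higher and 0.347% lower. The KO minus WT differences over both viruses ran between -0.39 for S100a8 and 0.29 for S100a10. The interaction, AdDlx3 minus AdGFP in KO cells less the same in WT cells, ran between -0.36 for S100a3 and 0.27 for S100a9.

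The remaining S100 genes were mostly near 0. Of 9 in a list of the other S100 genes and S100pbp, which encodes an S100P-binding protein, 3 were tested and only S100a1 rose. Of all genes 23.4% rose in that fit. With batch as a block all 3 rose, where 38% of all genes did. S100pbp then had a log2 difference of 0.46 (limma adjusted p = 0.0141, against 0.0902 without the block). S100a7a, the mouse relative of human psoriasin, was named after its values were seen. It was at 3.26 and 21.4 RPKM in KO AdDlx3 libraries, 3.56 and 9.18 RPKM in WT AdDlx3 libraries, 1.08 and 4.26 RPKM in KO AdGFP libraries and 1.36 and 2.29 RPKM in WT AdGFP libraries. It was higher in the batch B library of every group, the opposite of S100a8. Its log2 difference of 1.59 ± 0.59 did not pass (limma adjusted p = 0.0772), and passed with batch as a block (0.00205). S100b, known from Schwann cells and melanocytes, was at most at 0.174 RPKM. Of 11 Schwann and melanocyte markers 10 were tested, 1 rose and 1 fell, where 23.4% of all genes rose and 5.74% fell. Ngfr rose by 1.51 on the log2 scale (limma adjusted p = 0.00323). Mbp fell by 0.71 (limma adjusted p = 0.0192), a call lost in some fits without 1 library. The summed level of the 11 was 172 to 425 RPKM with AdDlx3 and 236 to 394 RPKM with AdGFP. With batch as a block 1 rose and 2 fell, and after median-of-ratios rescaling 1 rose and 3 fell.

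The fused-type genes carry an S100-like EF-hand domain ahead of long repeats. Of 7 listed, 4 were tested, where 23.4% of all genes rose, or 38% with batch as a block. With batch as a block all 4 rose, Hrnr, or hornerin, passing only there (limma adjusted p = 0.0318, against 0.292 without the block). Without the block 3 rose: Tchh, or trichohyalin of the inner root sheath, Crnn, or cornulin, and Flg2, or filaggrin-2 of the cornified layer. Crnn, Flg2 and Hrnr passed the filter only through AdDlx3 libraries. Their AdGFP libraries were all below 1 RPKM, at most at 0.341 RPKM for Flg2 and 0.661 RPKM for Hrnr. The counts of rises in this list were thus largely set by the filter. Tchh was at 19.5 ± 6.63 RPKM with AdDlx3 and 2.72 ± 0.621 RPKM with AdGFP (SD, n = 4 each; log2 2.59 ± 0.26, limma adjusted p = 0.000706). Crnn was at 6.83 ± 4.70 RPKM with AdDlx3 and 0.105 ± 0.0475 RPKM with AdGFP (SD, n = 4 each; log2 3.35 ± 0.46, limma adjusted p = 0.00241). These differences were larger than that of any of the 10 genes. For Flg2 the log2 difference was 1.19 ± 0.33 (limma adjusted p = 0.0293). The call was lost without the batch B KO AdGFP library or either WT AdGFP library, and after median-of-ratios rescaling (limma adjusted p = 0.0512). Without either batch A AdDlx3 library Flg2 missed the filter and was not tested.

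Partner proteins and receptors of the S100 family moved in both directions. Of 27 listed genes 19 were tested, 5 rose, 5 fell and 9 did not pass, with a median of 0.31 beside +0.22 over all genes. Over all genes tested 23.4% rose and 5.74% fell. After median-of-ratios rescaling 2 partners rose and 5 fell, where 9.67% and 12.1% of all genes did. With batch as a block 9 partners rose and 5 fell, where 38% and 10.9% of all genes did. Anxa1, the annexin partner of S100a11, was at 343 ± 101 RPKM with AdDlx3 and 700.3 ± 102 RPKM with AdGFP (SD, n = 4 each) and fell by 1.06 ± 0.21 on the log2 scale (limma adjusted p = 0.00933). Anxa2, the annexin partner of S100a10, was at 791 ± 213 RPKM with AdDlx3 and 1359 ± 221 RPKM with AdGFP (SD, n = 4 each) and fell by 0.81 ± 0.22 (0.0283). The Anxa2 call was lost with no filter (0.0918) and in the fits without any one of 5 libraries, namely either batch B AdDlx3 library, the batch A KO AdGFP library or either WT AdGFP library (at most 0.0787). Il1a, whose product is released with the help of S100a13, fell by 1.24 ± 0.23 (0.00665). Myh9, the non-muscle myosin heavy chain bound by S100a4, fell by 0.69 ± 0.13 (0.00636). Ahnak, a giant scaffold protein that binds the annexin A2 complex, fell by 0.87 ± 0.16 (0.00732). Nucb1, or nucleobindin-1, rose by 0.79 ± 0.14 (0.00552), and Anxa6, another annexin, rose by 0.82 ± 0.17 (0.00985) but did not pass after median-of-ratios rescaling (0.0627). Ager, the receptor RAGE for S100 proteins, was named after its values were seen, and it passed the filter only through AdDlx3 libraries. It rose by 1.20 ± 0.28 (0.0170), at 1.85 ± 0.794 RPKM with AdDlx3 and 0.501 ± 0.227 RPKM with AdGFP (SD, n = 4 each), and was not called without the batch A WT AdGFP library (0.0552).

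Ratios within a library do not depend on its scaling. The ratio of S100a10 to Anxa2 was 0.635 to 1.14 with AdDlx3 and 0.409 to 0.627 with AdGFP, with no overlap. The log2 difference was 0.83 (exact two-sided permutation p = 0.0286, the smallest that 70 arrangements can give, and 0.114 after adjustment over 4 ratios). Within batch A it was 0.79, and within batch B 0.88. The ratio of S100a11 to Anxa1 was 2.63 to 4.003 with AdDlx3 and 1.81 to 2.69 with AdGFP, which overlap. Its log2 difference was 0.50 (exact two-sided permutation p = 0.0571, adjusted 0.114). Within batch A it was 0.68, and within batch B 0.32. Such a ratio shows only that the 2 genes changed unequally.

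**Figure D5:**
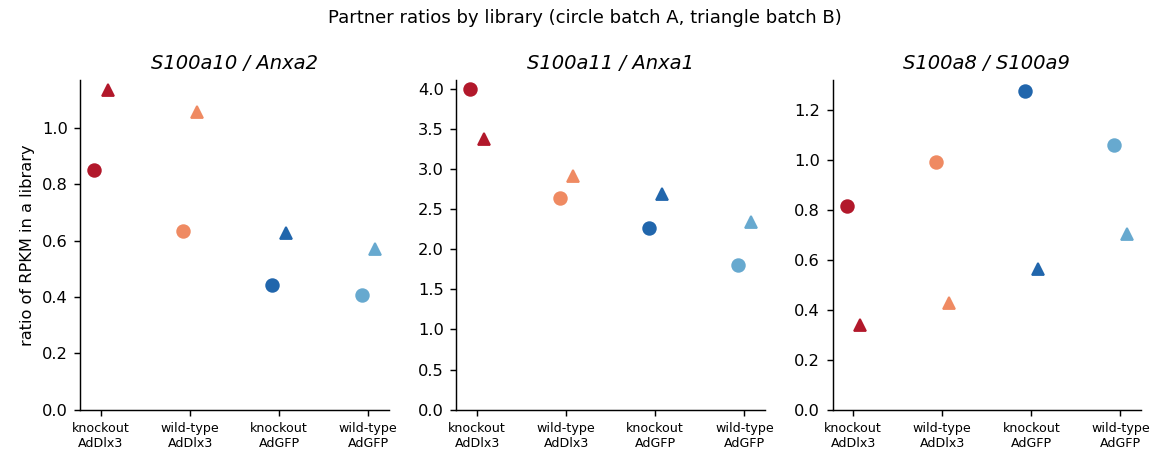
Ratio of RPKM in each library (vertical axis, starting at 0) for 3 of the gene pairs, with the groups from left to right as KO AdDlx3, WT AdDlx3, KO AdGFP and WT AdGFP. Circles are batch A and triangles batch B libraries. The S100a10 to Anxa2 ratio does not overlap between viruses, and the S100a8 to S100a9 ratio separates the batches.

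By the root-mean-square difference of centred log2 values over the 8 libraries, the genes with patterns most like each S100 gene were Marveld3 (0.050) and Meis3 (0.070) for S100a13. They were Ptgs2 (0.138) and Pstpip2 (0.157) for S100a3, and Klk8 (0.061) and Faap100 (0.077) for S100a16. For S100a11 they were Pmvk (0.084) and Cavin1 (0.089), for S100a14 Psme3 and Wdr89 (both 0.057), and for S100a10 Ptgfrn and Myl6 (both 0.077). For S100a6 they were Abhd2 (0.067) and Itpripl2 (0.080), and for S100a4 Ppp1r14c (0.096) and Spryd7 (0.107). For S100a8 they were Gm2506 (0.112) and LOC100861978 (0.122), and for S100a9 Fbxo32 (0.140) and 4930413F20Rik (0.141). Among the 10 S100 genes themselves, S100a11 and S100a16 were closest (0.097), then S100a6 and S100a14 (0.137) and S100a6 and S100a10 (0.152). A gene that varies little has many near neighbours by this measure.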

How the data were processed

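Per the submitters' processing notes, bcl2fastq 2.20.0.422, TopHat2 2.1.1 and Partek were used with mm10. The authors deposited RPKM per gene and alignment counts per library. They also deposited log2 group means of RPKM + 0.1, linear ratios and signed fold-change scores with p-values and q-values per comparison. That table is quoted only where named, and no label or header names its test. The files hold no read counts per gene, so limma 3.58.1 (R 4.3.3) with a mean-variance trend was run on log2(RPKM + 0.5). Tests used 12090 genes at 1 RPKM or more in at least 2 libraries, with Benjamini-Hochberg adjustment over all of them. Comparisons within a genotype or virus and the interaction used a 4-group model. Virus over both genotypes used genotype and virus, and the change between batches added batch and its product with virus.

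The genes and lists were chosen with earlier results of these data known. All 10 genes are described. In each list the text names up to 6 tested genes by the lowest adjusted p over both genotypes, with Anxa2 always named. Batch was left out of the model. The replicate number is the batch in the deposited sample sheet (1 is A, 2 is B), and same-numbered libraries deviated together (correlation 0.351 to 0.876 over 6 pairs), so for the S100 genes and the gene lists, calls or counts with batch as a block are given where they differ. On simulated data with 200 of 12090 genes changed by 3 on the log2 scale between the viruses, 95.5% were recovered, with 15 false calls. The simulated libraries were independent, with no batch, and no fitted virus difference of the 10 genes over both genotypes was larger than 1.33. These rates thus do not carry over to the 10 genes. Alternatives were other pseudocounts, filters and scalings, no trend, the block, and each library left out. The block together with median-of-ratios rescaling was added after seeing the data.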

Additional observations from a re-analysis of the deposited data

Results flagged for a closer look

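S100a16 differed in its AdDlx3 response between the batches by a test of the difference itself. The response was -0.94 in batch B and -0.33 in batch A on the log2 scale, a change of -0.61 ± 0.16 (limma adjusted p = 0.0361). The call was lost without any one of 6 of the 8 libraries (0.0932 to 0.200), with no filter (0.0985), with equal RPKM sums (0.0608) and with no variance trend (0.0519). Over all genes tested, 14% changed between the batches by the same test. The summed level of 8 basal keratinocyte markers, made up mostly of Krt5 and Krt14 in AdGFP libraries, was lowest in the same batch B AdDlx3 libraries. Itga6 of that list rose with AdDlx3 (log2 0.55, limma adjusted p = 0.0226; lost in 4 of 8 fits without 1 library). Cdh1 (log2 -0.90, limma adjusted p = 0.00712) and Itgb4 (log2 -0.87, limma adjusted p = 0.0218) of that list fell. The markers' part in the S100a16 values was not tested.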

How the results depend on the processing

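Over both genotypes, 3 of the 10 genes were called. The count was 2 with no filter or a filter of 5 RPKM, 7 with median-of-ratios scaling, 5 with equal RPKM sums, 6 with batch as a replicate block, 9 with both the block and median-of-ratios scaling, and 2 to 4 without any one library. In WT cells the count of 1, S100a13, became 0 with no filter, with median-of-ratios scaling and with equal RPKM sums, 3 with the block, 7 with the block and that scaling, and 0 to 1 without any one library. In KO cells the count of 1 became 3 with the block, 7 with the block and that scaling, and 0 to 1 without any one library. For the change between batches the count of 1 became 2 with a pseudocount of 1 or a filter of 5 RPKM, 0 with no filter, equal RPKM sums or no variance trend, and 0 to 1 without any one library. The count for each genotype comparison and for the interaction was 0 under every alternative run, also with the block. The number of all genes called also moved with the setting, and the number tested differs with the filter. With every library kept, it was 2508 to 5908 over both genotypes (3525 in the main fit) and 128 to 2657 in WT cells (317). It was 349 to 2976 in KO cells (643) and 241 to 1734 for the change between batches (1692). Over both genotypes 29.2% of all genes were called in the main fit, 48.9% with the block and 21.8% with median-of-ratios scaling. The cause of these changes was not tested. S100a3 could not be fitted with the filter of 5 RPKM. Of 1332 values of single S100 genes under alternatives, 1182 kept direction and call, 37 became called, 32 lost their call, and 81 turned their sign. None of those 81 belongs to a called result, and 4 of them are S100a10 over both genotypes. The depth of a gene is unknown, since the files give no counts per gene.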

Other observations

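Calcium-binding proteins outside the S100 family were also read. Of 18 listed, 15 were tested, 4 rose, 4 fell and 7 did not pass between AdDlx3 and AdGFP libraries over both genotypes, where 23.4% of all genes rose and 5.74% fell. After median-of-ratios rescaling 1 rose and 5 fell, where 9.67% and 12.1% of all genes did. With batch as a block 5 rose and 5 fell, where 38% and 10.9% of all genes did. Of the 8 calls, Capns1 was lost in all 8 fits without 1 library (limma adjusted p up to 0.116), Chp1 in 6 (up to 0.0774) and Efhd2 in 5 (up to 0.0745). Capn2, the large subunit of m-calpain, fell by 0.87 on the log2 scale (limma adjusted p = 0.00271), and Calm2, which encodes calmodulin, fell by 1.39 (0.0130). Rcn1, or reticulocalbin-1, fell by 1.21 (0.0176), but not without the batch A WT AdGFP library (0.0552). Calu, or calumenin of the secretory pathway, rose by 1.20 (0.00447). Sri, or sorcin, rose by 0.86 (0.00928) and did not pass after rescaling (0.0527).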
